A study of Mus musculus with 12 samples.

Results

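The genes described here encode the voltage-gated calcium channels and their accessory subunits, the voltage-gated sodium channels, the TRPC, TRPM and TRPV cation channels, the HCN pacemaker channels, the ryanodine and inositol trisphosphate receptors of intracellular stores, the sodium leak channel *Nalcn*, and the polycystin relative *Pkd1l2*. They were chosen by gene symbol and numbered 74 of the 55304 genes in the table. Of these, 72 had at least 1 read in some library, and *Trpv5* and *Trpc2* had none. A further 6 (*Trpm8*, *Cacna1s*, *Trpm1*, *Trpv1*, *Cacng1* and *Trpc7*) had reads in too few libraries to be tested, which left 66 tested genes.

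RNA was sequenced from *Pomc*-eGFP positive anterior pituitary cells collected by fluorescence-activated cell sorting from male mice of a C57Bl6/J background that were 8 weeks old when the experiment started. All 4 groups, control included, carried this transgene, in which the *Pomc* promoter drives the eGFP reporter. Control mice drank plain water, DEX mice drank water with 2.5 µg/ml dexamethasone for 4 weeks, and the recovery groups had the same treatment followed by 7 days (1 week) or 28 days (4 weeks) without it. Each group had 3 libraries, each from a pool of several pituitaries, so the spread given is between pools (SD, n = 3).

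Corticotrophs are excitable cells, and a rise of cytosolic calcium triggers the release of ACTH. Depolarisation opens voltage-gated calcium channels in the plasma membrane, sodium leak and TRP channels help to set the resting potential from which action potentials start, and inositol trisphosphate receptors release calcium from the endoplasmic reticulum after vasopressin acts on the cell. Glucocorticoids such as DEX restrain ACTH release at several levels, among them transcription of *Pomc* and the excitability of the cell.

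Values are normalised counts, that is, reads scaled by the effective size of each library, and levels of different genes are compared per kilobase (kb) of exon. Libraries held 7719894 to 12848078 reads on genes, and 1 read was worth 0.0787 to 0.127 normalised counts. Of the markers checked, *Tbx19*, the transcription factor that defines the *Pomc* lineages, was detected in every library (39.5 to 1490 normalised counts). *Pax7*, which defines the melanotrophs of the intermediate lobe, stayed at or below 0.34, but other genes of the melanotroph list were detected, and its 6 genes summed to 89.4 to 190.4. *Pomc* took 0.454% to 0.997% of the reads in DEX and 3.80% to 20% in the other groups. The hormone genes *Gh* and *Prl* of other pituitary cells took 8.20% to 22.9% and 3.50% to 10.3% of the reads, and in DEX *Gh* took 8.20% to 11.6%. *Gh* took more of the reads than *Pomc* in every library except the first and the second at 1 week. The second library 1 week after withdrawal had the lowest scaling factor (0.702), and the third had the lowest *Tbx19* (39.5) and the highest summed endothelial markers (181.5). As these are bulk samples, fewer cells of a type and less RNA per cell cannot be told apart.

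The sequences upstream of both genes of the set that passed a test are shown here, because the results turn on these genes. *Tmem37* lies on chromosome 1 (120067377 to 120074074, minus strand, GRCm38) and *Pkd1l2* on chromosome 8 (116995679 to 117082449, minus strand). The reference sequences are from RefSeq (GRCm38.p6), whose promoter entries cover 250 bases before and 50 bases after a start site and matched 58 of the 74 genes. Capitals mark an AP-1 motif in *Tmem37* and a TATA box motif in *Pkd1l2*.
Tmem37, chr1:120073865-120073894, minus strand: cagggcgctgcTGAGTCAgcgtaacccgag
Pkd1l2, chr8:117082450-117082699, minus strand: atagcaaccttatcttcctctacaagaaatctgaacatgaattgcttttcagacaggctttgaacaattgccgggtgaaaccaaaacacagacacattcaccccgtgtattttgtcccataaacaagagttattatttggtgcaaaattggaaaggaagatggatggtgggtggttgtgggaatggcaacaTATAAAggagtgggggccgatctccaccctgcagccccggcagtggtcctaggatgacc

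The AP-1 letters TGACTCA, here on the reverse strand, began 103 bases before the RefSeq start of *Tmem37* (position -103), inside the first exon of the longer GENCODE model. These letters occurred on either strand in 5.20% of all 32851 promoter entries. The TATAAA letters began at position -59 of *Pkd1l2*, and occurred on either strand in 13.6% of all promoter entries. Neither entry held the half-site AGAACA of the glucocorticoid receptor element, which 18.97% of all entries held. The full palindromic element of that receptor and the cyclic AMP element TGACGTCA were also absent from both. Over all entries these 2 were rare, at 0.0091% and 1.79%. A match or its absence describes these letters in this window only.

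Of the 12 families with more than 1 gene, 6 had a member that was highest per kb in every library, and in the others the member with the highest mean led in at least 8 of 12 libraries. *Tmem37*, a gamma-like accessory subunit of voltage-gated calcium channels, had the highest mean over the 12 libraries (48.3 normalised counts per kb), followed by the cytoplasmic beta subunit *Cacnb3* (20.4 per kb), the alpha2delta subunit *Cacna2d1* (6.40 per kb), *Nalcn* (5.12 per kb) and the sodium channel pore *Scn3a* (3.98 per kb). *Cacnb3* and *Cacna2d1* led their families in 12 of 12 libraries and held 77.6% and 77.9% of the family's summed level per kb. *Scn3a* led the 10 sodium channel pores in 12 of 12 libraries with 58.3% of their sum. Only 17 of the 74 genes had a mean above 10 normalised counts, and 55 had a mean above 1.

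**Figure D1:**
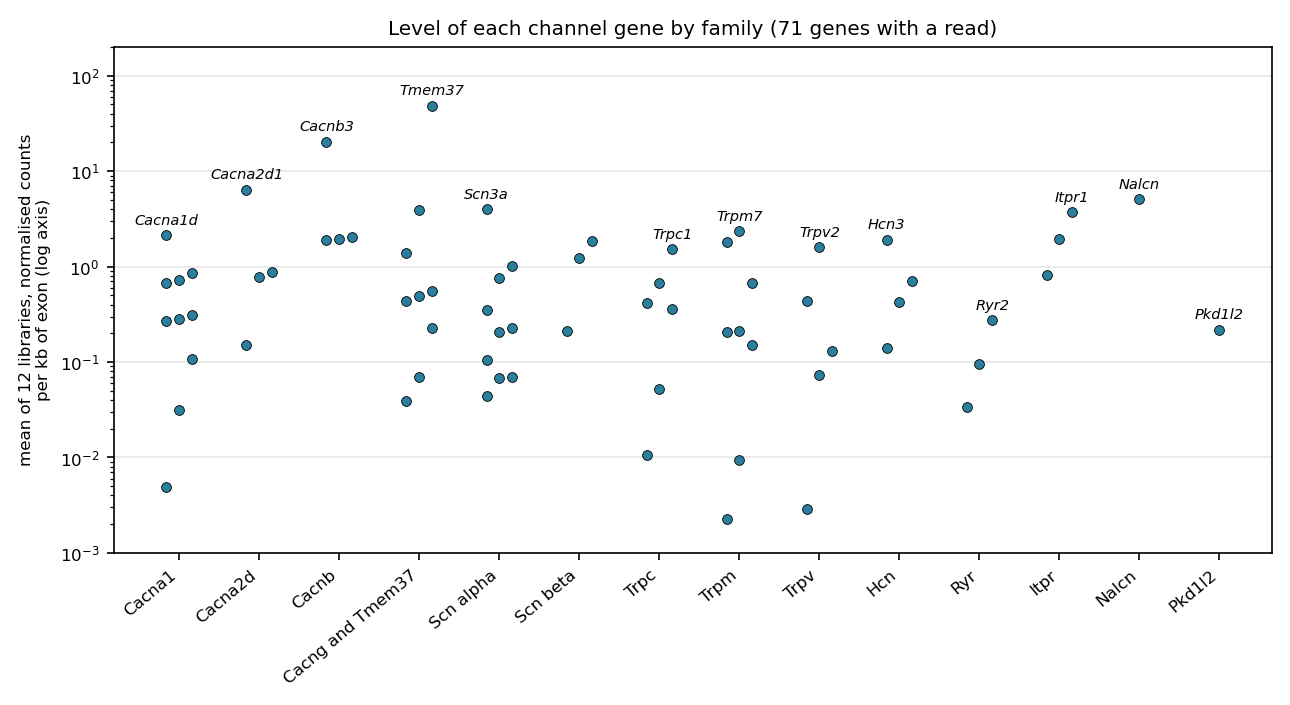
Mean level over the 12 libraries, in normalised counts per kb of exon on a log axis, for 71 channel genes with a read, arranged by family; each point is 1 gene, and leading genes are named. *Tmem37* at 48.3 and *Cacnb3* at 20.4 per kb stand above all other genes, while *Ryr2* leads the ryanodine receptors at 0.275 per kb.

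The top of this order depended on the group. *Cacnb3* ranked first and *Tmem37* second in control, 1 week and 4 week libraries, with *Cacnb3* at 20.2, 22.8 and 21.8 per kb and *Tmem37* at 15.8, 14.0 and 10.4 per kb. In DEX libraries *Tmem37* ranked first at 153 per kb, and *Cacnb3* second at 16.8 per kb. The per-library ranges of *Tmem37* (7.04 to 255.6 per kb) and *Cacnb3* (13.2 to 29.4 per kb) overlapped. The ranges of *Cacna2d1* (3.00 to 12.5 per kb), *Nalcn* (2.57 to 7.07 per kb) and *Scn3a* (2.80 to 7.01 per kb) also overlapped, so that the order of these neighbours is not resolved by the spread.

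The first comparison asked which of these genes differed between the 4 groups. *Tmem37* alone passed limma's F test at an adjusted p under 0.05, which is 1 of 66 genes tested (1.52%), against 78 of all 24736 genes tested (0.315%). At an unadjusted p under 0.05 there were 7 of 66 (10.6%), against 9.21% of all genes. *Tmem37* and *Pkd1l2* entered the set by name and also stand in gene groups that the study drew from these same samples. Neither the number of calls in any comparison nor their direction is therefore independent evidence, and nothing is read from their share against that of all genes.

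*Tmem37* was high in all DEX libraries and low in all others. Its values were 24.3, 14.7 and 23.2 normalised counts in control, 176, 90.3 and 335 in DEX, 19.2, 26.6 and 9.23 at 1 week, and 11.5, 11.3 and 18.2 at 4 weeks. The lowest DEX library lay above all 9 libraries of the other groups. *Tmem37* rose with DEX by 3.10 on the log2 scale (SE 0.45, limma adjusted p = 0.0146), an 8.59-fold difference of the fitted levels. It fell by 3.37 at 1 week (SE 0.45, limma adjusted p = 0.0044) and by 3.70 at 4 weeks (SE 0.45, limma adjusted p = 0.0021) relative to DEX. Against control, the difference was -0.27 at 1 week (95% interval -1.22 to 0.68) and -0.60 at 4 weeks (95% interval -1.54 to 0.35), and neither passed the test. The F test gave an adjusted p of 0.0033 in limma. Without the third DEX library that p was 0.0556. The difference between DEX and control kept its direction with each library left out, but its limma adjusted p was 0.0888 and 0.0544 without the second and the third control library and 0.113 and 0.132 without the first and the third DEX library.

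None of the 7 corticotroph markers tested passed limma's test between DEX and control (adjusted p = 0.685 for *Tbx19*, 0.741 for *Avpr1b* and 0.424 for *Pomc*), and their values are given beside those of *Tmem37*. The median log2 difference of the 7 was 0.0072, with *Crhr1* at -0.61, *Pcsk1* at -0.43 and *Neurod1* at 0.0072. *Tbx19* had 459, 229 and 218 normalised counts in control, 769, 498 and 1490 in DEX, 282, 385 and 39.5 at 1 week, and 166, 94.4 and 188 at 4 weeks. The DEX library with the highest *Tmem37* also had the highest *Tbx19*, and the 1 week library with the lowest *Tmem37* had the lowest *Tbx19*. Per 100 normalised counts of *Tbx19*, *Tmem37* had 5.30, 6.43 and 10.6 in control, 22.9, 18.1 and 22.5 in DEX, 6.81, 6.92 and 23.4 at 1 week, and 6.96, 11.9 and 9.70 at 4 weeks. The DEX libraries thus stayed above every control and 4 week library on this ratio. The third library at 1 week, with little *Tbx19*, lay above all DEX libraries. *Avpr1b*, the vasopressin receptor of corticotrophs, had 60.0, 25.6 and 12.1 normalised counts in control and 103, 67.9 and 130 in DEX. *Pomc* had 34560 to 74260 in control and 4241 to 8521 in DEX. The summed 9 endothelial markers ranged from 7.32 to 68.3 in control, 3.73 to 9.89 in DEX, 27.8 to 181.5 at 1 week and 83.1 to 157.6 at 4 weeks, with *Cdh5* at 0 in the first DEX library and *Emcn* at 0 in the third. The summed 9 macrophage and leukocyte markers were 53.8 to 129 in control, 19.5 to 29.8 in DEX, 90.8 to 148 at 1 week and 92.5 to 205 at 4 weeks. The part of these cell-type differences in the results on channel genes was not tested.

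**Figure D2:**
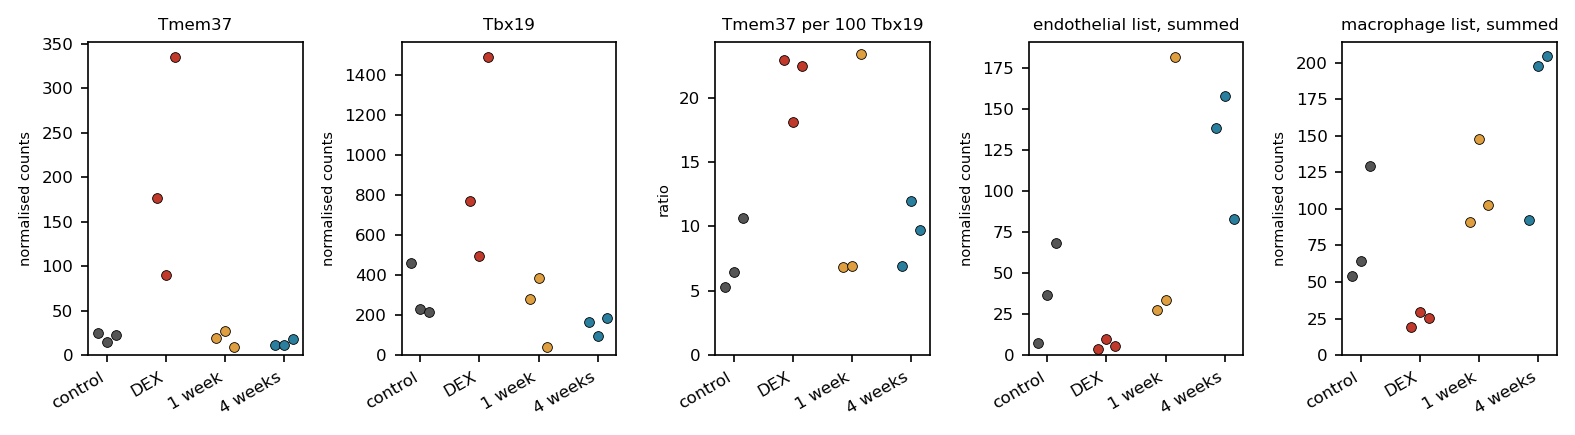
*Tmem37*, *Tbx19*, their ratio, and the summed endothelial and macrophage marker lists in the 12 libraries (1 point a library, 3 a group; linear axes from 0, normalised counts except for the ratio). *Tmem37* and *Tbx19* are both highest in the third DEX library, at 335 and 1490, and the endothelial sum in DEX (3.73 to 9.89) lies below that of all 1 and 4 week libraries.

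**Figure D3:**
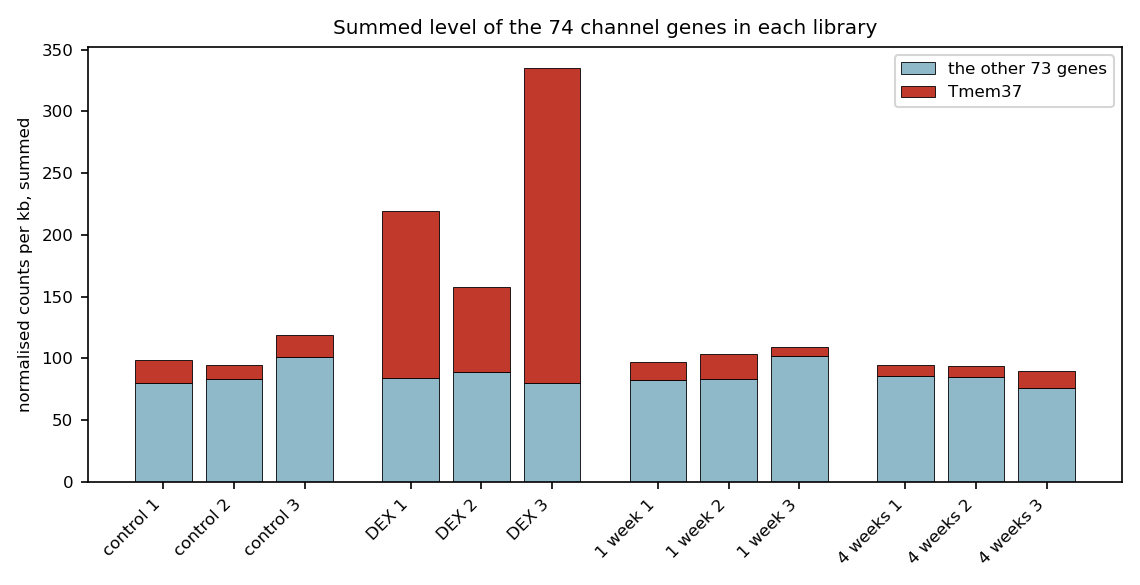
Summed level of the 74 channel genes in each library, in normalised counts per kb of exon, with *Tmem37* in red on top of the other 73 genes in blue. The sum of the other 73 stays between 76.3 and 102 per kb while *Tmem37* adds 68.9 to 255.6 per kb in the DEX libraries.

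*Tmem37* accounted for most of the difference in the summed level of the set. It made up 61.4%, 43.6% and 76.2% of the summed level per kb in the DEX libraries, and 6.45% to 19.6% in the other 9. The other 73 genes together had 79.9, 83.1 and 101 normalised counts per kb in control, 84.5, 89.2 and 79.8 in DEX, 82.2, 83.6 and 102 at 1 week, and 85.7, 85.4 and 76.3 at 4 weeks. These sums overlapped between all groups.

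*Pkd1l2*, a large membrane protein of the polycystin-1 family, had a similar order of groups at a far lower level. It had 1.34, 0 and 0 normalised counts in control, 5.22, 4.58 and 9.64 in DEX, 0, 0.765 and 0.111 at 1 week, and 0, 0.109 and 0 at 4 weeks. In reads these were 17, 0 and 0 in control, 63, 56 and 86 in DEX, 0, 6 and 1 at 1 week, and 0, 1 and 0 at 4 weeks. All DEX libraries lay above all 9 others, and 1 control library held all 17 control reads. *Pkd1l2* passed the test between 4 weeks and DEX, where it fell by 5.61 on the log2 scale (SE 1.00, limma adjusted p = 0.0195). Because 4 weeks rests on 1 read, its size is better given by the ratio of summed reads, 192-fold higher in DEX with a counting interval of 34.0 to 7602 (exact 95% interval, counting error only). The DEX difference from control was 4.68 (95% interval 2.56 to 6.80, limma adjusted p = 0.0971), that between 1 week and DEX was -4.57 (95% interval -6.69 to -2.44, limma adjusted p = 0.0598), and the F test over the 4 groups gave a limma adjusted p of 0.0545, so that these did not pass. The call between 4 weeks and DEX was lost without the first or the third DEX library (limma adjusted p = 0.0818 and 0.110) and without any 1 of the 4 week libraries (0.0744, 0.0685 and 0.0906). Without the control library that held its reads, the F test passed (limma adjusted p = 0.0122), as did DEX against control (0.0218) and 1 week against DEX (0.0186). The F test also passed without any 1 of the 1 week libraries (limma adjusted p = 0.0466, 0.0260 and 0.0351), and 1 week against DEX without the second of them (0.0385). With edgeR's quasi-likelihood test on recovered reads the F test passed (adjusted p = 0.0184).

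**Figure D4:**
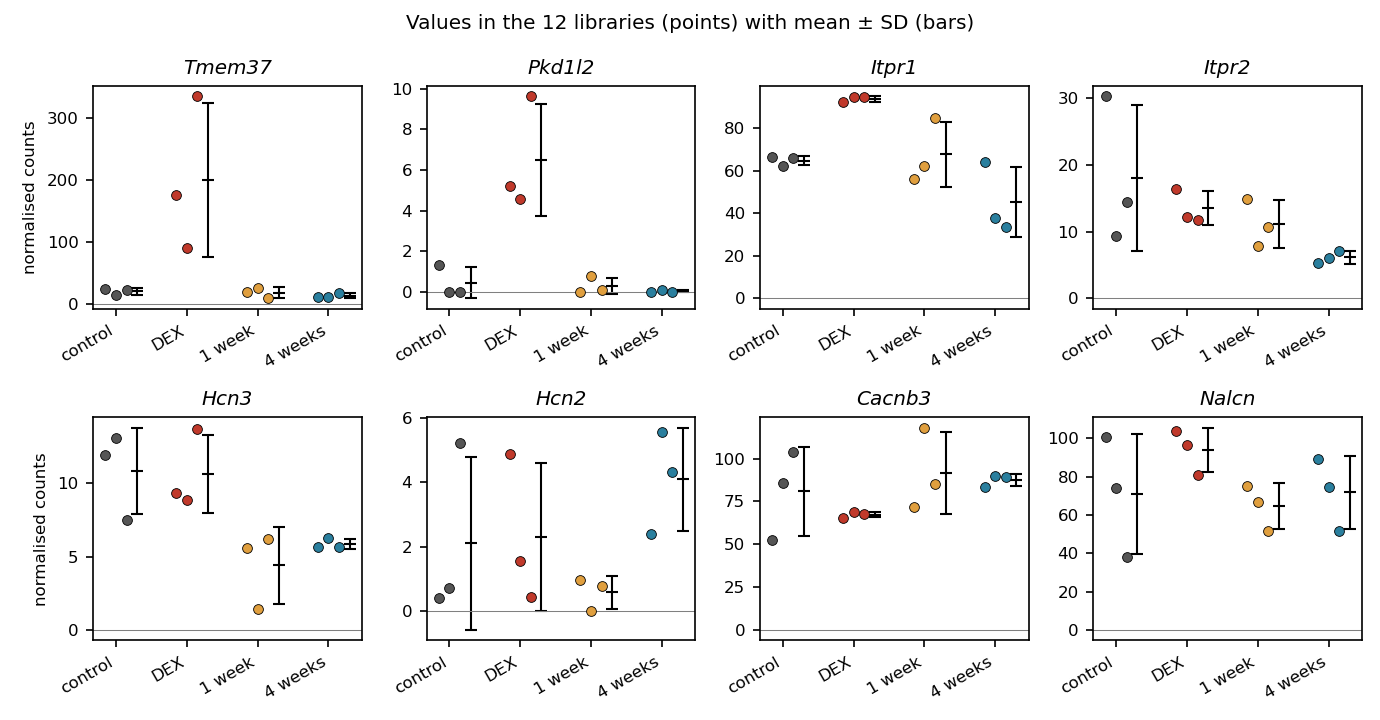
Normalised counts of 8 channel genes in the 12 libraries (points, 3 pools a group) with mean ± SD (bars beside them); each panel has its own linear axis. *Tmem37* and *Pkd1l2* are highest in DEX, where the 3 *Itpr1* values (92.1 to 94.4) also lie above those of every other library.

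Of the tested channel genes, 35 of 66 (53.0%) had a positive log2 difference between DEX and control, against 47.8% of all genes tested. Only *Tmem37* passed this test, which is 1 of 66 (1.52%), against 30 of 24736 (0.121%). The median log2 difference between DEX and control was 0.03 over the 66 genes and -0.02 over all genes. The 3 DEX libraries lay above the 3 control libraries for 5 genes (7.58%, against 6.61% of all genes), namely *Tmem37*, *Pkd1l2*, *Itpr1*, *Trpv3* and *Cacna1h*, and below them for *Cacna1g* (1.52%, against 6.23%). *Trpv3* and *Cacna1h* are named here after their values were seen. For 9 of 66 genes (13.6%, against 24.9% of all genes) the whole 95% interval lay within 1 on the log2 scale, so that for few of these genes the interval left out a difference of 1 in both directions.

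Of the 10 pore-forming alpha1 subunits of calcium channels, only *Cacna1d* had a mean above 10 normalised counts over the 12 libraries. *Cacna1d*, the pore of an L-type channel, led the 10 pores in 12 of 12 libraries. It had 21.6, 24.6 and 61.1 normalised counts in control, 23.4, 22.7 and 11.2 in DEX, 26.5, 10.2 and 66.7 at 1 week, and 21.7, 16.6 and 16.2 at 4 weeks. The third control library and the third 1 week library were far above the rest, and the groups overlapped. The 4 L-type pores together made up 40.5% to 61.4% of the summed pore level per kb over the 12 libraries, the 3 pores of P/Q, N and R type 20.4% to 34.0%, and the 3 T-type pores 11% to 38.9%. *Cacna1g*, a T-type pore, had 1.49, 0.82 and 2.72 normalised counts in control and 0.33, 0.82 and 0.45 in DEX. Its groups did not overlap, although the nearest values both round to 0.82, with 7 reads in the lowest control library and 10 in the highest DEX library, and the log2 difference of -1.42 (SE 0.64) had a limma adjusted p of 0.704.

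Calcium channel accessory subunits other than *Tmem37* did not pass limma's test in any comparison of the main fit. With array weights *Cacng6* passed the F test (limma adjusted p = 0.033). It then also passed between 1 week and DEX (0.0448) and between 4 weeks and DEX (0.0145). Over all genes these weights called 4.32%, 2.29% and 5.26%. *Cacng6* had 5.11, 7.07 and 4.35 normalised counts in control, and 3.56, 4.33 and 5.94 in DEX. At 1 week it had 10.9, 13.6 and 5.89, and at 4 weeks 9.98, 13.7 and 7.76. *Cacnb3*, the beta subunit that brings the pore to the membrane, had 52.7, 86.0 and 104 normalised counts in control, 65.4, 68.7 and 67.7 in DEX, 71.7, 118 and 84.9 at 1 week, and 83.2, 90.0 and 89.1 at 4 weeks. Its DEX libraries lay below those of both recovery groups but within the control range. The log2 difference between 4 weeks and DEX was 0.38 (95% interval -0.19 to 0.94, limma adjusted p = 0.748). *Cacna2d1*, which raises the surface level of the pore, had 81.2, 78.5 and 86.0 normalised counts in control, 79.1, 101 and 62.5 in DEX, 97.5, 37.2 and 155 at 1 week, and 66.1, 55.5 and 54.1 at 4 weeks. All 4 week libraries of *Cacna2d1* lay below all control libraries, with a log2 difference of -0.49 (95% interval -1.30 to 0.32, limma adjusted p = 0.891).

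Among sodium channels, *Scn3a* was the main pore, and none of the 14 genes passed limma's test. With edgeR's likelihood ratio test *Scn7a* passed the F test (adjusted p = 0.0412), as did 4.23% of all genes. In reads, *Scn7a* had 1, 1 and 1 in control, 1, 26 and 1 in DEX, 0 in each 1 week library, and 0, 5 and 8 at 4 weeks. *Scn3a* had 49.9, 47.1 and 39.7 normalised counts in control, 58.5, 63.9 and 40.9 in DEX, 47.7, 45.8 and 87.4 at 1 week, and 34.8, 44.5 and 34.9 at 4 weeks. Its 4 week libraries lay below its 1 week libraries, by 0.60 on the log2 scale (SE 0.28, limma adjusted p = 0.908). Of the beta subunits, which modulate gating and adhesion, *Scn4b* had 1.34, 0.82 and 1.09 normalised counts in control, 1.16, 0.82 and 2.92 in DEX, 0.29, 0.13 and 0.33 at 1 week, and 1.66, 0.66 and 1.53 at 4 weeks. *Scn4b* was lowest in all 1 week libraries, each with 1 to 3 reads, and the log2 difference from control was -1.79 (SE 0.64, limma adjusted p = 1).

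The sodium channel pores also differed in level within a shared stretch of genome. On chromosome 2, *Scn3a*, *Scn2a*, *Scn1a*, *Scn9a* and *Scn7a* lie together between 65457118 and 66784914. *Scn3a* had 3.98 normalised counts per kb over the 12 libraries, against 0.354 for *Scn2a*, 0.230 for *Scn9a*, 0.0690 for *Scn1a* and 0.0442 for *Scn7a*. The next highest of these neighbours, *Scn2a*, was thus 11.3-fold lower than *Scn3a*. A like contrast held on chromosome 7, where *Cacng6* had 3.89 per kb, against 0.495 for *Cacng8* and 0.0701 for *Cacng7* in the same 102.7 kb. These neighbours are named by position and not by their response.

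TRP channels are cation channels, and none of the TRPC, TRPM and TRPV genes tested passed limma's test in the main fit. *Trpm7*, a channel that carries its own kinase domain, led the TRPM genes with 34.5, 29.6 and 19.2 normalised counts in control, 34.1, 34.3 and 14.9 in DEX, 29.3, 8.67 and 38.6 at 1 week, and 32.0, 24.1 and 19.4 at 4 weeks. *Trpm6*, its relative in magnesium transport, had 8.02, 0.59 and 0.76 normalised counts in control and 0.09, 0.22 and 0.27 at 4 weeks. A single control library held 102 of its control reads, the others 5 and 7, and the 4 week libraries 1 to 3. The log2 difference between 4 weeks and control was -2.58 (SE 0.88, limma adjusted p = 0.658). *Trpm6* passed the F test with DESeq2 and with edgeR's likelihood ratio test (adjusted p = 0.0317 and 0.000609), and *Trpv4* with array weights (limma adjusted p = 0.0492). *Trpc1*, which led the TRPC genes, had 5.90 to 16.9 normalised counts in control and 11 to 15.9 in DEX. *Trpc5* was at 3.26 to 8.97 in control and 0.64 to 3.11 at 1 week, with a log2 difference of -1.28 (SE 0.60, limma adjusted p = 1). *Trpv2* led the TRPV genes at 7.39 to 9.68 in control and 4.38 to 5.27 at 4 weeks, and the difference of -0.88 (SE 0.33) had a limma adjusted p of 0.697.

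HCN channels carry the inward current that opens on hyperpolarisation. *Hcn3* had 12, 13.1 and 7.50 normalised counts in control, 9.36, 8.83 and 13.7 in DEX, 5.61, 1.40 and 6.23 at 1 week, and 5.64, 6.24 and 5.68 at 4 weeks. All 6 recovery libraries lay below all 6 control and DEX libraries. The log2 difference from control was -1.49 at 1 week (SE 0.47, limma adjusted p = 1), with the smallest value in the second 1 week library. *Hcn2* had 0.95, 0 and 0.78 normalised counts at 1 week and 2.40, 5.58 and 4.33 at 4 weeks, and the difference of 3.14 (SE 1.03) had a limma adjusted p of 0.713. The second 1 week library had no *Hcn2* read, and the difference was 2.05 without it and 1.70 with a pseudocount of 1. In control, *Hcn2* ran from 0.39 to 5.22, which overlapped both recovery groups.

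The release channels of the endoplasmic reticulum were led by *Itpr1*, the inositol trisphosphate receptor that opens after vasopressin signalling. *Itpr1* had 66.2, 62.2 and 65.8 normalised counts in control, 92.1, 94.4 and 94.4 in DEX, 55.9, 62.3 and 84.6 at 1 week, and 64.0, 37.8 and 33.7 at 4 weeks. Every DEX library lay above the other 9. The log2 difference of DEX from control was 0.53 (95% interval -0.02 to 1.08, limma adjusted p = 0.742), and that of 4 weeks from DEX was -1.11 (SE 0.26, limma adjusted p = 0.0602). The latter passed without the second or the third 1 week library (limma adjusted p = 0.0429 and 0.0294) and without the first 4 week library (0.0423). It also passed with same-sum scaling, array weights and DESeq2 (adjusted p = 0.0477, 0.00146 and 0.0127), and its value lay between -1.40 and -0.93 in all settings run. *Itpr2* had 30.3, 9.31 and 14.5 normalised counts in control, 16.4, 12.3 and 11.8 in DEX, 14.9, 7.90 and 10.7 at 1 week, and 5.27, 6.02 and 7.13 at 4 weeks. The 4 week libraries lay below all other libraries, and the log2 difference from control was -1.38 (SE 0.39, limma adjusted p = 0.527). All 3 *Itpr* genes had a negative log2 difference between 4 weeks and DEX, from -1.12 to -0.62. *Ryr2*, the highest ryanodine receptor, had 8.72 to 13.4 in control and 4.60 to 8.59 at 4 weeks, with a difference of -0.87 (95% interval -2.09 to 0.34, limma adjusted p = 0.858).

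*Nalcn*, which carries the resting sodium leak, had 101, 74.3 and 37.8 normalised counts in control, 104, 96.6 and 81.1 in DEX, 75.1, 66.9 and 51.6 at 1 week, and 89.2, 74.5 and 51.5 at 4 weeks. The groups overlapped, except that all 1 week libraries lay below all DEX libraries. The DEX difference from control was 0.51 on the log2 scale (95% interval -0.18 to 1.20, limma adjusted p = 0.832).

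**Figure D5:**
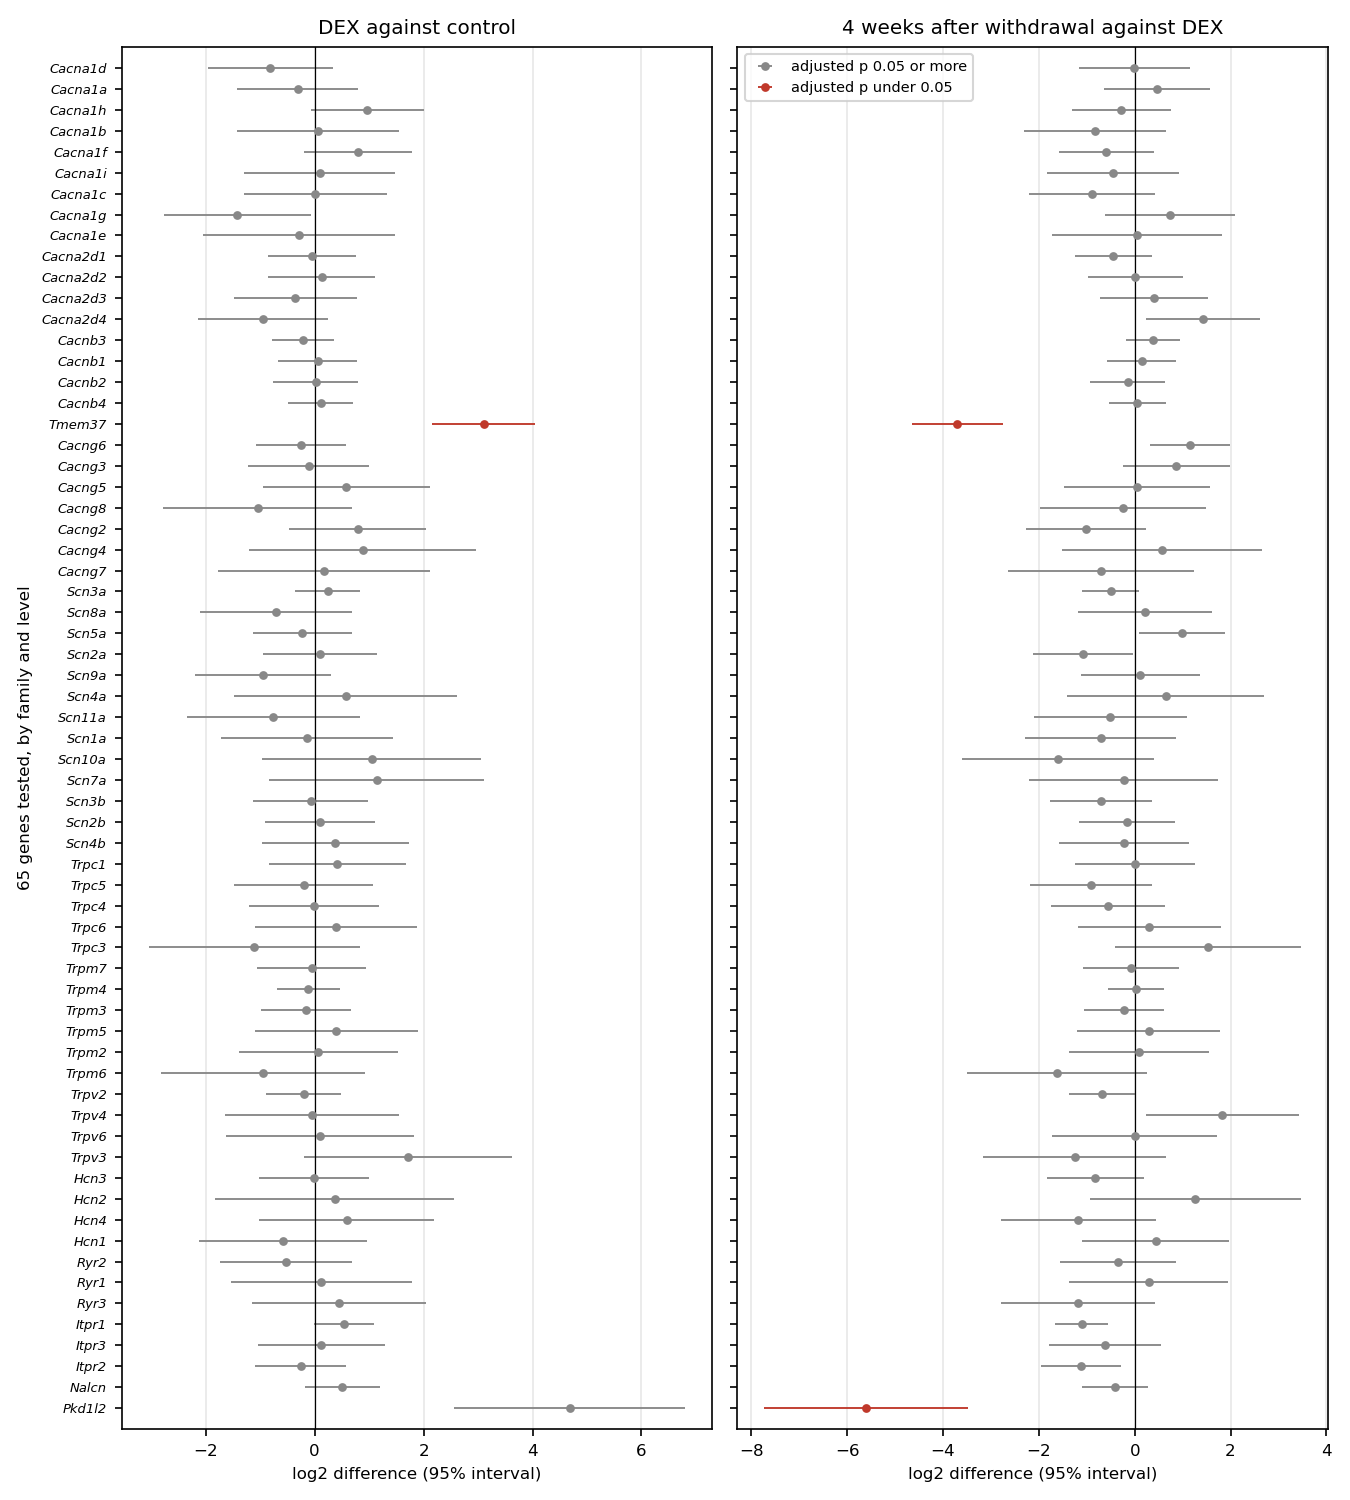
Log2 difference of DEX from control (left) and of 4 weeks after withdrawal from DEX (right) for 65 of the 66 channel genes tested, with 95% intervals from limma, by family and level; red marks a limma adjusted p under 0.05. *Tmem37* lies at 3.10 on the left and -3.70 on the right, and *Pkd1l2* at 4.68 and -5.61.

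Withdrawal was compared with DEX and with control. *Tmem37* was the 1 gene of 66 past the test between 1 week and DEX (1.52%, against 0.433% of all genes), and *Tmem37* and *Pkd1l2* were the 2 past it between 4 weeks and DEX (3.03%, against 0.873%). Between 1 week and DEX, 22 of 66 genes had a positive log2 difference (33.3%, against 51.9% of all genes), and the median was -0.26 over the 66 genes and 0.03 over all genes. The 1 week libraries lay below the DEX libraries for 9 genes (13.6%, against 6.87%) and above them for 4 (6.06%, against 6.97%). Between 4 weeks and DEX, the 4 week libraries lay below for 12 genes (18.2%, against 9.67%) and above for 6 (9.09%, against 9.80%), and the median difference was -0.20 over the 66 genes and 0.00 over all genes. The comparisons share the DEX libraries, so that their counts are not separate evidence.

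Between 1 week and control, 26 of 66 genes had a positive log2 difference (39.4%, against 50.2% of all genes), between 4 weeks and control 29 of 66 (43.9%, against 49.7%), between 4 weeks and DEX 28 of 66 (42.4%, against 50.4%), and between 4 weeks and 1 week 34 of 66 (51.5%, against 47.4%). No channel gene passed limma's test between 1 week and control, between 4 weeks and control, or between 4 weeks and 1 week (0 of 66 each), and neither did any of the 24736 genes. At an unadjusted p under 0.05 there were 3 genes between 1 week and control (4.55%, against 3.79% of all genes), 6 between 4 weeks and control (9.09%, against 6.35%) and 5 between 4 weeks and 1 week (7.58%, against 5.47%). In the comparisons with DEX, an unadjusted p under 0.05 was reached by 3 genes between DEX and control (4.55%, against 6.80%), 7 between 1 week and DEX (10.6%, against 10.8%) and 9 between 4 weeks and DEX (13.6%, against 9.94%). In the comparisons without DEX, edgeR's quasi-likelihood test and DESeq2 also called 0 channel genes in each, although over all genes they called 2 and 8 between 1 week and control, 0 and 60 between 4 weeks and control, and 0 and 15 between 4 weeks and 1 week. The likelihood ratio test of edgeR called *Trpm6* between 4 weeks and control and *Hcn2* between 4 weeks and 1 week, and 0 between 1 week and control. Over all genes that test called 94 (0.38%), 162 (0.655%) and 50 (0.202%), in the same order. The 1 week libraries lay below control for 4 genes (6.06%, against 2.61% of all genes), among them *Trpc5*, *Hcn3* and *Scn4b*, and above for 0 (against 3.47%). The 4 week libraries lay below the 1 week libraries for *Scn3a* and *Itpr2*, 2 genes (3.03%, against 3.72%), and above for *Hcn2* and *Scn4b*, 2 genes (3.03%, against 5.19%). The 4 week libraries lay below control for 8 genes (12.1%, against 6.42%), among them *Trpc5*, *Hcn3*, *Itpr2*, *Trpv2* and *Ryr2*, and above for 2 (3.03%, against 6.77%).

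The genes that work beside these channels were described by 9 lists with 89 genes, of which 84 were tested. They cover store-operated entry, other TRP, polycystin and lysosomal channels, partners of *Nalcn*, acid-sensing and epithelial sodium channels, regulators of calcium and sodium channels, partners of release channels, calcium pumps and exchangers, and mitochondrial calcium uptake. In the F test 1 of 84 passed, against 0.315% of all genes, namely *Atp2a1*, the muscle-type calcium pump of the sarcoplasmic and endoplasmic reticulum. It had 24.7, 15 and 10.9 normalised counts in control, 134.5, 53.5 and 249 in DEX, 12.4, 7.39 and 1.67 at 1 week, and 7.95, 4.38 and 13.8 at 4 weeks. All DEX libraries lay above all others, with the third highest and the second lowest as for *Tmem37*. Unlike *Tmem37*, *Atp2a1* did not pass limma's test between DEX and control. Its limma adjusted p was 0.0193 in the F test, and it fell by 4.47 at 1 week (SE 0.66, limma adjusted p = 0.0058) and by 3.94 at 4 weeks (SE 0.66, limma adjusted p = 0.0120) relative to DEX.

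Of the same lists, 2 of 84 genes passed limma's test with a fall between DEX and 1 week (against 0.433% of all genes). Between DEX and 4 weeks 2 passed with a fall (against 0.873%). None passed with a rise in any comparison, and none passed between DEX and control. *Slc24a4*, a sodium-calcium-potassium exchanger, had 3.37 to 4.01 normalised counts in control, 9.77 to 18.6 in DEX, 1.67 to 4.37 at 1 week and 2.08 to 6.65 at 4 weeks, and fell by 2.36 at 1 week (SE 0.48, limma adjusted p = 0.0414). *Asic2*, an acid-sensing sodium channel, had 0 to 1.96 in control, 3.92 to 10.3 in DEX, 0.22 to 0.95 at 1 week and 0.09 to 0.46 at 4 weeks, and fell by 4.19 at 4 weeks (SE 0.92, limma adjusted p = 0.0471). *Atp2a1*, *Slc24a4* and *Asic2* also stand in gene groups that the study drew from these samples. *Slc24a4* and *Asic2* are named after their values were seen. Per 100 normalised counts of *Tbx19*, *Atp2a1* had 4.99 to 6.53 in control, 10.8 to 17.5 in DEX, 1.92 to 4.38 at 1 week and 4.64 to 7.35 at 4 weeks. Its DEX libraries thus lay above all others on this ratio, as they did in normalised counts.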

How the data were processed

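Sequencing libraries of sorted *Pomc*-eGFP positive cells were analysed from 12 pools, 3 in each of 4 groups, grouped by the sample labels. The authors had trimmed reads with Trim Galore 0.6.5, aligned them to GRCm38 with STAR 2.7.1a, and assigned read pairs to genes by strand with featureCounts 2.0.0. What the authors deposited is a normalised signal, the CPM of the effective library size as edgeR gives it, and not plain CPM as the design had assumed; the planned log-scale test was kept. All 271881 values above 0 were whole reads within a tolerance of 0.01 when divided by the value of 1 read. The libraries hold 7719894 to 12848078 reads on genes and carry no molecular identifiers. The exact interval given for the ratio of summed *Pkd1l2* reads covers counting error only. Intervals from limma rest on the spread between pools. RNA amplified from amounts below detection adds noise of its own.

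Genes above 0.1 in at least 3 libraries (24736) were tested on log2(value + 0.1) with limma 3.58.1 in R 4.3.3, with 1 model of all 12 libraries, a trended prior, an F test of the 3 treated groups against control and 6 pairwise contrasts. P-values were adjusted by Benjamini-Hochberg over all genes, and an adjusted p under 0.05 was called. Fold changes are on this log2 scale, which can understate or overstate changes of low genes. For *Pkd1l2* between DEX and control the difference was 4.68 here. It was 2.43 with a pseudocount of 1 and 3.69 with edgeR's likelihood ratio test. P-values rest on the spread between pools. Exon lengths and positions are from GENCODE M21 on GRCm38. Scripts were tested on simulated data.

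The genes and lists were chosen with earlier results of these data known. Genes named are those past a test, the 3 with the smallest p and non-overlapping groups in each contrast, the highest of each family per kb, *Tmem37*, *Pkd1l2* and *Nalcn*, and of the related lists those past the F test. Marker lists covered 13 cell types or states and are given as sums. Alternatives were pseudocounts of 0.5 and 1, no filter, a filter at 1, median ratio scaling, scaling to the same sum, array weights, the replicate number as a block, DESeq2 1.42.0 and edgeR 4.0.16 (likelihood ratio and quasi-likelihood tests) on recovered reads, and each library left out. The values of 1 gene are not reported here.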

Additional observations from a re-analysis of the deposited data

How the results depend on the processing

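The number of channel genes past the F test was 1. It was 2 with a pseudocount of 0.5, a pseudocount of 1, same-sum scaling, edgeR's quasi-likelihood test and DESeq2, 5 with array weights and with edgeR's likelihood ratio test, and 0 to 2 with each library left out. Past DEX against control there was 1, with 2 at a pseudocount of 0.5 or 1, with array weights and with the likelihood ratio test, and 0 to 2 with a library left out. Past 1 week against DEX there was 1, with 2 at both pseudocounts and same-sum scaling, 3 with array weights and the likelihood ratio test, and 1 to 2 with a library left out. Past 4 weeks against DEX there were 2, with 3 under same-sum scaling and DESeq2, 4 under array weights, and 1 to 3 with a library left out. The likelihood ratio test gave 1 in place of 0 for 4 weeks against control and for 4 weeks against 1 week. The share called over all genes rose in these settings too. For DEX against control it was 0.121% in the main fit, 0.671% with array weights and 1.09% with the likelihood ratio test. In the same order it was 0.433%, 2.29% and 2.88% for 1 week against DEX, and 0.873%, 5.26% and 2.72% for 4 weeks against DEX. Beside *Tmem37*, the gene added to the F test was *Pkd1l2* in each of these settings except DESeq2, where it was *Trpm6*; array weights also added *Trpv4*, *Itpr1* and *Cacng6*, and the likelihood ratio test *Scn7a*, *Hcn2* and *Trpm6*. The causes were not tested.

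With the replicate number as a block, 1 gene passed the F test as before, and no count of calls in the contrasts moved. Same-numbered libraries had correlations of -0.294 to 0.397 (7 of 18 pairs over 0.1). Their median was 0.0559, against -0.0145 for libraries of different number, and 8 of 12 libraries correlated best with their own number. The numbers were not taken as pairs in the main fit, and whether they pair the libraries was not tested.

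Same-sum scaling moved the median of all genes by 0.143 (DEX against control), -0.219 and -0.139 (1 and 4 weeks against control), and -0.36 and -0.281 (1 and 4 weeks against DEX). Over all genes the F test called 78 (0.315%), 91 and 92 at pseudocounts of 0.5 and 1, 127 with same-sum scaling, 165 with the quasi-likelihood test, 1047 (4.23%) with the likelihood ratio test, 734 (3.68%) with DESeq2, 1069 (4.32%) with array weights, and 7 to 186 with a library left out, lowest without the third DEX library.

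Uncalled differences near 0 changed sign. *Pkd1l2* at 1 week against control (0.12) was -0.0831 and -0.0845 at pseudocounts of 0.5 and 1, -0.0808 with same-sum scaling, -0.75 with array weights, -0.83 with edgeR's tests, -0.67 with DESeq2, and -0.74 to 1.40 with a library left out. *Pkd1l2* at 4 weeks against control was -1.57 to 0.36 with a library left out, and at 4 weeks against 1 week 0.0505 with array weights. *Tmem37* at 1 week against control was 0.0144 with array weights and -0.60 to 0.16 with a library left out, and at 4 weeks against 1 week -0.757 to 0.00253 with a library left out.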
